A study of Rattus norvegicus with 23 samples.

Results

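Exposure of newborn rat hearts to maternal high-fat (HF) diet alone was compared with control. The members were all hearts whose exposure label was maternal high-fat diet (5 hearts) and all labelled control (7 hearts), 12 of the 23 hearts of the series, read with all 29170 probe sets of the array. Dams of the HF diet group were fed HF diet from 28 days or more ahead of mating until delivery, and control dams were fed control diet over the same time. Dams of both groups were given citrate buffer on gestational day 14, the vehicle for the toxin that made the dams of the other 2 groups diabetic (6 diabetes hearts, 5 combination hearts). Hearts were taken whole on postnatal day 1, and each group mixed male and female pups, with the sex of each heart not stated. The sources do not say which hearts were littermates, so the p-values reflect only how far single hearts spread. In limma that spread was estimated from all 23 hearts. In tissue of mixed cells, fewer cells of a type and less RNA per cell cannot be told apart.

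The fetal heart burns mainly glucose and lactate, and turns to fatty acids after birth, when milk brings fat. Fatty acids switch on their own oxidation through PPAR receptors, which raise genes such as Cpt1b and Pdk4. The newborn heart also lays down elastic fibers in its vessels and valves, and its myocytes still divide for a short time. Lipid oxidation, growth and matrix genes are therefore described here beside the genes that changed most.

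Each value is on a log2 scale and centered on the median of its probe set over the 23 hearts. A value of 0 is the middle of the series, so groups can be compared but no gene's level is known. The labelled tissue could for this reason not be checked by the level of heart markers. Array medians lay between -0.015 and 0.019, and probe sets had a median SD of 0.151 within the HF diet and 0.164 within the control hearts. Single arrays differed in spread. The SD over all probe sets was 0.30 in HF diet heart 3, 0.33 in control heart 1 and 0.28 in control heart 5. In the other hearts of the 2 groups it was 0.16 to 0.21. The number of arrays limits the precision.

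At a fold change beyond 1.25 with an unadjusted p under 0.05 in limma, 275 of 29170 probe sets passed (0.943%), of which 200 were higher (0.686%) and 75 lower (0.257%) in HF diet hearts. By p alone 778 had an unadjusted p under 0.05 (2.67%), and 0 passed in limma once Benjamini-Hochberg adjustment was applied, with a lowest adjusted p of 0.9998. The unequal-variance test named in the methods passed 158, with 801 (2.75%) before the fold change was asked for and 0 once adjusted. Every p below is unadjusted unless called adjusted, and no gene named here passed the adjustment. Among probe sets with 1 gene symbol 73 passed (0.477%), 33 higher (0.216%) and 40 lower (0.261%). Counted by gene, 69 of 14506 passed (0.476%). At that share a short gene list is most likely to hold 0 calls, so 0 calls in a list says little about its genes. The gene lists were chosen with earlier results of these data known, so their counts are descriptions with no test. Over all genes the median difference was 0.0053 and 7571 lay above 0. The 275 calls became 450 when HF diet heart 2 was left out, 152 for HF diet heart 3, 176 for HF diet heart 4 and 425 for control heart 6.

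HF diet hearts 3, 4 and 5 shared a stem in the sample codes, while hearts 1 and 2 had a stem each. The sources used here do not say what the stem stands for, and no stem of the HF diet hearts was carried by a control heart, so stem and group cannot be told apart. Of the 73 named probe sets past the threshold, 62 lay farther from the control mean in hearts 3 to 5 than in hearts 1 and 2. The median distance was 0.492 in hearts 3 to 5 and 0.292 in hearts 1 and 2, on the same side of control for 72. HF diet heart 3 alone was the lowest of the 12 hearts for 23 of the 40 lower probe sets and the highest for 11 of the 33 higher ones. Its array also had the widest spread over all probe sets among the HF diet hearts (SD 0.30). With hearts 1 and 2 as the only HF diet hearts 203 probe sets passed, 33 of them among the 275, and with hearts 3 to 5 alone 667 passed, 233 of them among the 275.

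Control heart 1 stood apart by genes of other tissues. The mean of 25 lymphocyte and thymus genes was 1.87 in that heart and between -0.039 and 0.015 in the other 6 controls, with the HF diet hearts between -0.045 and 0.022. Among its defining markers, Cd3g (a chain of the T cell receptor complex) stood at 5.73, Rag1 (which cuts receptor genes in maturing lymphocytes) at 4.67 and Lck (a T cell kinase) at 3.45. The mean of 18 lung epithelium genes was 2.09 in control heart 1, between -0.14 and 0.042 in the other controls and up to 0.457 in HF diet heart 4. Values without control heart 1 are given beside the immune results.

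Genes with complete separation of the groups were few. Of the probe sets with 1 gene symbol in the annotation, 20 had all 5 HF diet values on 1 side of all 7 control values (0.131%), and 6 of these passed the threshold (0.0392%). By chance alone, separation to a given side has a probability of 0.00126 over the 792 splits of the 12 hearts, and either side counts here. The share of 0.131% is therefore not above chance. The 6 genes were picked by their separation, which itself keeps their exact permutation p small. Slc7a1, Mllt11 and Rnd1 were higher and Sema7a, Reg3g and Or6c1h lower. All 6 stayed past the threshold whichever of the 12 hearts was left out. With HF diet hearts 1 and 2 alone only Or6c1h among them passed.

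Rnd1, a small GTPase that loosens actin fibers, had the largest rise of the 3. Its values in HF diet hearts 1 to 5 were 0.049, 0.272, 0.683, 0.418 and 1.12, against a control range of -0.532 to 0.035 with a median of -0.206. Heart 1 lay just above the highest control, and the hearts of the shared stem lay highest. The difference was 0.72 (SE 0.26, 1.65-fold, limma p = 0.0100, exact permutation p = 0.00126, two-sided), and 0.00126 is the smallest p that 792 splits of the hearts can give.

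Slc7a1 encodes the main carrier of arginine and lysine into cells. It read 0.264, 0.313, 0.288, 0.542 and 0.417 in HF diet hearts 1 to 5 and from -0.173 to 0.212 in controls, with a median of -0.042. All HF diet hearts lay above all controls, with hearts 4 and 5 highest. It was 0.38 higher (SE 0.13, limma p = 0.00597, exact permutation p = 0.00253). It was the only 1 of 27 amino acid transporters past the threshold, beside 0.476% of all genes. The median of that list was -0.017 beside 0.0053 over all genes.

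Mllt11, a small protein first known as a fusion partner in leukemia, was tightly grouped after HF diet. It read 0.192, 0.356, 0.233, 0.153 and 0.323 in HF diet hearts, and controls ran from -0.499 to 0.146 with a median of -0.044. The SD was 0.086 in HF diet and 0.257 in control hearts, and heart 4 cleared the highest control by a small margin. The difference was 0.39 (SE 0.14, limma p = 0.0137, exact permutation p = 0.0114).

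Sema7a, a membrane-anchored semaphorin that signals through integrins and plexins, was lower. HF diet hearts 1 to 5 read -0.227, -0.187, -0.74, -0.119 and -0.209, and controls -0.069 to 0.302 with a median of 0.208. The groups did not overlap, and heart 3 stood far below the other 4. The difference was -0.45 (SE 0.14, 1.37-fold, limma p = 0.0046, exact permutation p = 0.00253).

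Or6c1h, an olfactory receptor gene by its symbol, read -0.221, -0.473, -0.306, -0.137 and -0.195 in HF diet hearts and -0.056 to 0.415 in controls, with a median of 0.009. Every HF diet heart lay below every control, heart 2 lowest. It was 0.38 lower on the log2 scale (difference -0.38, SE 0.12, limma p = 0.00363, exact permutation p = 0.00253). Of 1239 olfactory and vomeronasal receptor genes on the array 1 was higher and 2 lower past the threshold, beside 0.221% and 0.255% of all genes. Calls were thus no more frequent among these receptors than over all genes. The higher gene, Or4c121, differed by 0.37 and by 0.30 without HF diet heart 3, under the fold change needed. The other lower gene, Or8b44, differed by -0.36 and missed the threshold without HF diet heart 4 or control heart 6 (-0.32 each).

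**Figure D1:**
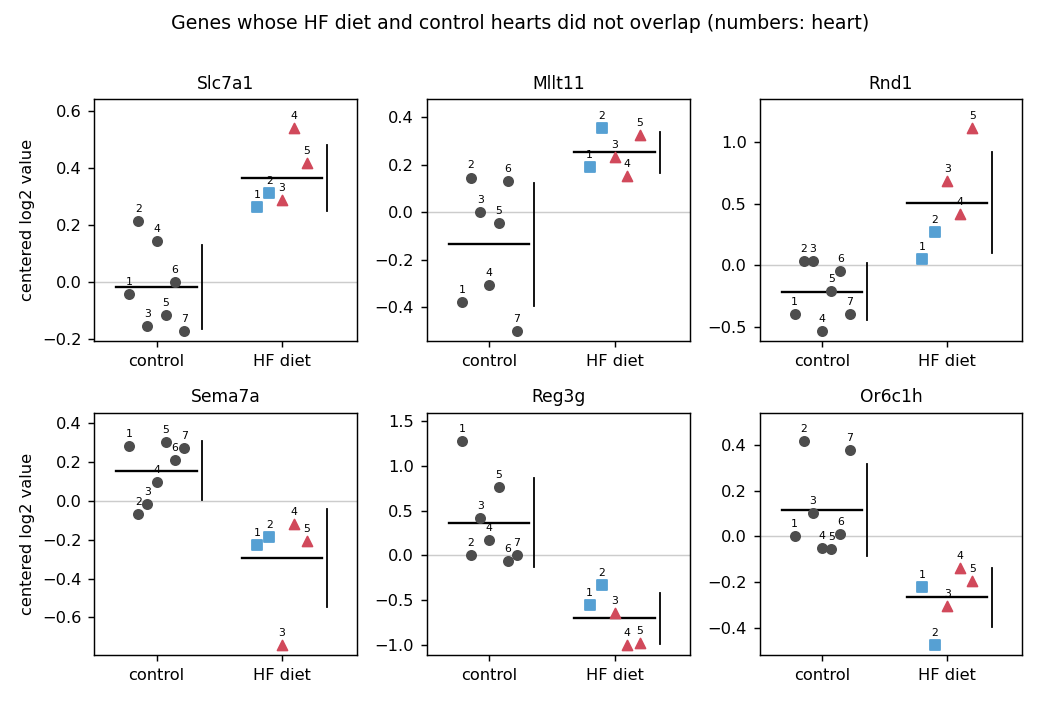
Centered log2 values (vertical axis) of the 6 genes with separate groups and a call past the threshold, with 1 point per heart (numbers are the heart), gray circles for controls, blue squares for HF diet hearts 1 and 2 and red triangles for HF diet hearts 3 to 5, which share a code stem. Horizontal lines are group means and vertical bars the SD; in Rnd1 the HF diet hearts span 0.049 to 1.12 and in Reg3g -0.998 to -0.326.

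The 6 genes were also set against the other exposures, which share the HF diet hearts with the comparison above. Against the 6 diabetes hearts 128 of 29170 probe sets passed (0.439%), and against the 5 combination hearts 1679 (5.76%). Reg3g differed by -0.81 (SE 0.32) from diabetes and by -0.93 (SE 0.34) from combination hearts, and both passed the threshold. Sema7a (-0.36 and -0.38) and Or6c1h (-0.34 and -0.35) passed in both comparisons as well. Slc7a1 passed against combination at 0.35, while its 0.31 against diabetes lay under the fold change needed. Mllt11 passed against diabetes at 0.44 and was at -0.0098 from combination. Rnd1 differed by 0.52 from diabetes and 0.10 from combination hearts, and neither passed.

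Tnfrsf12a, the receptor of the cytokine TWEAK, read -0.055, 0.309, 0.446, 0.474 and 0.723 in HF diet hearts 1 to 5 and -0.483 to 0.07 in controls, median -0.139. Only heart 1 fell inside the control range, and the other 4 lay above every control. The difference was 0.56 (SE 0.18, 1.47-fold, limma p = 0.0043, exact permutation p = 0.00505), and it held whichever heart was left out.

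Hbegf, a ligand of the EGF receptor that is shed from the membrane, showed more overlap. It read 0.075, 0, 0.124, 0.373 and 0.836 against -0.722 to 0.27, with a control median of -0.2. Heart 5 was far above the rest, and hearts 1 to 3 lay within the controls. The difference of 0.55 (SE 0.25, limma p = 0.0431, exact permutation p = 0.0303) missed the threshold in limma without HF diet heart 4 or 5 or control heart 1, 4, 5 or 7 (0.41 to 0.56).

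Rnd3, a relative of Rnd1, differed by 0.33 (SE 0.16, limma p = 0.0498, exact permutation p = 0.0429) and missed the threshold without HF diet heart 1, 3 or 4 or control heart 1, 4, 5 or 7 (0.27 to 0.36). Of 37 genes for semaphorins, plexins and small GTPases of cell shape, 2 were higher (Rnd1, Rnd3) and 1 lower (Sema7a). Over all genes 0.221% were higher and 0.255% lower, and the list median was 0.026. Pcdh18, a cell adhesion protocadherin, read 0.468, 0.555, 0.432, 0.394 and 0.142 against -0.477 to 0.237, median -0.034. Only heart 5 fell among the controls. Its difference of 0.50 (SE 0.14, limma p = 0.00177, exact permutation p = 0.0101) passed with every heart left out and also with hearts 1 and 2 alone (0.61).

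Vash2, which promotes vessel growth and cleaves tyrosine from tubulin, read 0.137, 0.146, 0.714, 0.55 and 0.175 against -0.428 to 0.328, median -0.16. Hearts 3 and 4 lay above all controls and the other 3 overlapped control heart 6 alone. The difference was 0.47 (SE 0.14, limma p = 0.00289, exact permutation p = 0.0126) and passed with every heart left out. With hearts 1 and 2 alone it was 0.27, short of the threshold. The following genes were named after their values were seen. Dusp8, a phosphatase of stress kinases, was 0.41 higher (SE 0.14, limma p = 0.00893, exact permutation p = 0.0278). The kinase Stk38l was higher by 0.38 (SE 0.12, limma p = 0.00544, exact permutation p = 0.00379) and the repressor Etv6 by 0.35 (SE 0.11, limma p = 0.00505, exact permutation p = 0.0139). The neurotrophin receptors Ntrk2 and Ntrk3 were 0.33 and 0.37 higher (exact permutation p = 0.0480 and 0.0896). None of these 5 calls stood up to every omission. The difference was 0.30 for Dusp8 without HF diet heart 5, 0.27 for Stk38l without HF diet heart 3 and 0.26 for Etv6 without control heart 1, each under the fold change needed. Without HF diet heart 4 it was 0.24 for Ntrk2 and 0.23 for Ntrk3.

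Eln and Fbln5, genes of the elastic fiber list, passed the threshold as higher, as did Ltbp2, Acan and Myh11. Eln encodes elastin, the elastic core of the fibers. It read 0.406, -0.435, 0.584, 0.312 and 0.266 in HF diet hearts 1 to 5, and controls ran from -1.11 to 0.091 with a median of -0.22. Heart 2 lay below all but 1 control, and the other 4 lay above every control. The difference of 0.52 (SE 0.21, 1.43-fold, limma p = 0.0205, exact permutation p = 0.0492) missed the threshold without HF diet heart 3 (0.43) and without control heart 5, the lowest (0.38).

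Fbln5 encodes fibulin 5, which guides elastin onto the fiber. It read 0.12, -0.397, 0.068, 0.572 and 0.46 against -1.06 to 0.182, with a control median of -0.242. Hearts 4 and 5 lay above all controls, hearts 1 and 3 below only control heart 2, and heart 2 among the lowest. The difference was 0.57 (SE 0.21, 1.49-fold, limma p = 0.0107, exact permutation p = 0.0480) and passed with each heart left out. It missed the threshold with the hearts of 1 code stem averaged and with hearts 1 and 2 alone (0.27). Of 12 elastic fiber genes 10 had a positive difference and 2 passed (Eln, Fbln5), beside 0.476% of all genes. The list was chosen with earlier results of these data known, and both genes had already been described for this comparison. That share is therefore a description with no test. The median was 0.072 beside 0.0053 over all genes. The mean of the list was 0.085, -0.052, -0.112, 0.183 and 0.152 in HF diet hearts 1 to 5 and ran from -0.256 to 0.128 in controls. Hearts 4 and 5 alone lay above every control.

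Acan, the cartilage proteoglycan aggrecan that is also made in heart valves, read 0.38, -0.207, 0.314, 0.345 and 0.366 against -0.847 to 0.152, median -0.168. Heart 2 again lay within the controls while the other 4 cleared them. The difference of 0.45 (SE 0.17, limma p = 0.0143, exact permutation p = 0.0240) passed with every heart left out. It missed the threshold with the hearts of 1 code stem averaged and with hearts 1 and 2 alone (0.29). Myh11, the smooth muscle myosin heavy chain, showed the same split of hearts. It read 0.211, -0.35, 0.308, 0.279 and 0.314 against -0.847 to 0.157. Its difference of 0.35 (SE 0.16, limma p = 0.0438, exact permutation p = 0.0972) missed the threshold when 1 of 7 hearts was left out (HF diet 1, 3, 4 or 5, control 1, 3 or 5) and was lowest without control heart 5 (0.24).

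Ltbp2, which binds fibulin 5 and microfibrils, was not in the elastic fiber list. It read 0.012, -0.297, 0.157, 0.172 and 0.233 against -0.542 to 0.135. Its difference of 0.32 (SE 0.13, limma p = 0.0207, exact permutation p = 0.0429) sat on the fold change needed and missed it without HF diet heart 3, 4 or 5 or control heart 1, 3, 4, 5 or 7 (0.28 to 0.31). Sfrp2, a secreted Wnt modulator of fibroblasts, differed by 0.36 (SE 0.17, limma p = 0.0491, exact permutation p = 0.0846) and missed the threshold without HF diet heart 1, 2, 4 or 5 or control heart 4, 5, 6 or 7 (0.24 to 0.37). Matrix genes lower after HF diet included Cilp, a matrix protein of cartilage and fibroblasts. Cilp read 0.025, 0.035, -1.23, -0.768 and -0.414 against -0.176 to 0.493, with the 3 hearts of the shared stem below all controls and hearts 1 and 2 among them. The difference was -0.61 (SE 0.22, limma p = 0.00944, exact permutation p = 0.0101), and without HF diet heart 3 it was -0.42, short of the threshold. Of 30 fibroblast and matrix genes 15 had a positive difference and 0 passed, beside 0.476% of all genes, with a list median of -0.00056.

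**Figure D2:**
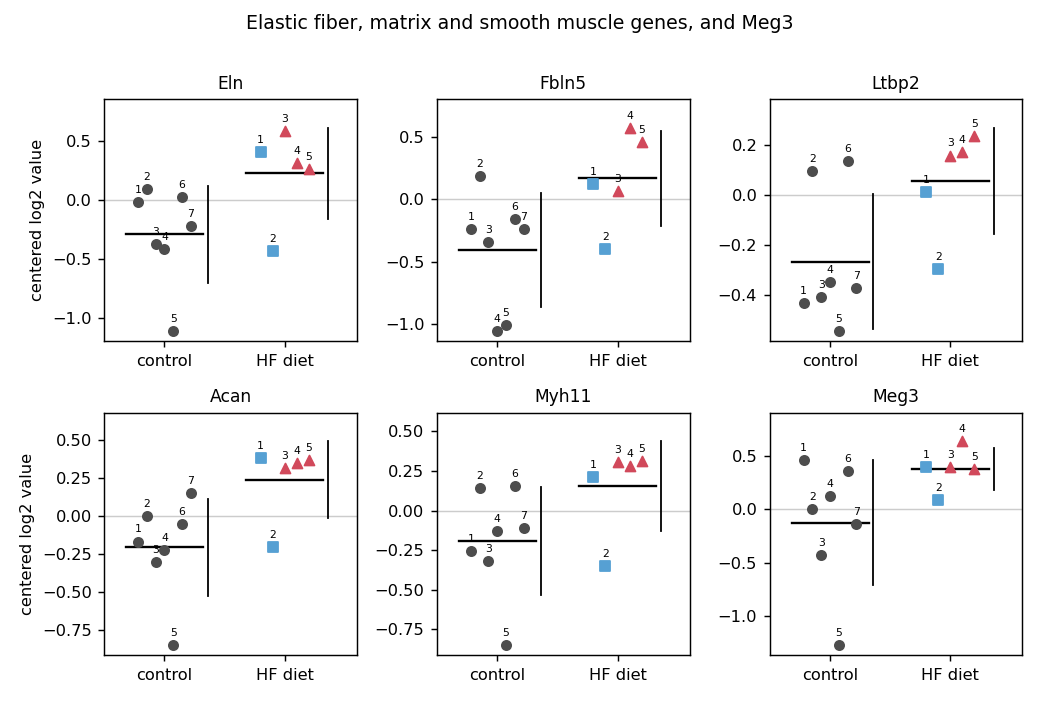
Centered log2 values (vertical axis) of 5 matrix and smooth muscle genes and of Meg3, with 1 point per heart (numbers are the heart), gray circles for controls, blue squares for HF diet hearts 1 and 2, red triangles for HF diet hearts 3 to 5, lines for means and bars for SD. In Eln, Fbln5, Ltbp2, Acan and Myh11, HF diet heart 2 lies among the controls and control heart 5 is the lowest or next to it (-1.11 in Eln).

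Meg3, a noncoding RNA made from the maternal copy of an imprinted region whose paternal copy makes Dlk1, stands before a long run of higher probe sets. Meg3 read 0.391, 0.083, 0.395, 0.632 and 0.375 in HF diet hearts and -1.27 to 0.461 in controls, median 0. Heart 4 lay above all controls and control heart 5 far below all others. The difference was 0.50 (SE 0.24, limma p = 0.0457, exact permutation p = 0.0808), and it missed the threshold without HF diet heart 1, 3, 4 or 5 or control heart 3, 5 or 7 (0.32 to 0.51, lowest without control heart 5). Dlk1, which holds back fat cell formation, differed by 0.35 and did not pass.

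In order of probe set number, 150 probe sets without a gene symbol stand between Meg3 and Dync1h1, the next named gene. Past the threshold 91 were higher (60.7%, beside 1.23% of all unnamed probe sets) and 0 lower, and 143 had a positive difference. Many repeat each other: 104 were distinct, of which 46 passed, with a median of 0.39. The mean of the distinct ones was -0.061, 0.033, 0.387, 0.702 and 0.287 in HF diet hearts 1 to 5, 0.27 ± 0.30 (SD, n = 5), and -0.088 ± 0.20 (SD, n = 7) in controls, lowest in control heart 5 at -0.51. The 3 hearts of the shared stem lay above all controls, and hearts 1 and 2 within them. The difference of the means was 0.36, and it was 0.29 without control heart 5, 0.55 with hearts 3 to 5 alone and 0.075 with hearts 1 and 2 alone. The mean was 0.058 ± 0.35 (SD, n = 6) in diabetes and 0.0061 ± 0.15 (SD, n = 5) in combination hearts. This run was picked out from these same values, so it is a description with no test.

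The array annotation used here names none of the 150 probe sets. In RefSeq (GRCr8) Meg3 and Dync1h1 lie on chromosome 6 with 200 annotated genes between them, 84 for small nucleolar RNAs, 58 for microRNAs, 9 for long noncoding RNAs and 4 for proteins. The study's gene lists give an array number and an Entrez identifier for 23 microRNAs. Of these 21 matched RefSeq by identifier and symbol, 8 of them in the run, in the same order along chromosome 6 as by probe set number, and the other 142 probe sets of the run have no name here. The study picked those lists on these hearts, so which microRNAs carry a name is not independent of the values. Without the run 184 probe sets passed, 109 higher and 75 lower.

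Of the 8 microRNAs in the run 4 passed as higher (Mir323, Mir539, Mir382 and Mir377), and of the other 13 only Mir350, on chromosome 13, did. Over all probe sets 0.686% passed as higher. These microRNAs carry names from lists picked on these same hearts, so their share cannot be set against it. A microRNA is cut from a hairpin and guides silencing of messages that pair with its seed, bases 2 to 8. The mature sequences of the 5 (RefSeq, GRCr8) are shown, seed in capitals, so that their seeds can be compared. The 9 sequences have 9 different seeds. Which arm or precursor a probe set reads is not known here, so both arms are given where RefSeq holds both.
rno-miR-323-5p: aGGUGGUCcguggcgcguucgc
rno-miR-323-3p: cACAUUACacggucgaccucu
rno-miR-539-5p: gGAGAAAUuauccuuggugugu
rno-miR-539-3p: cAUACAAGgguaauuucuuuuc
rno-miR-382-5p: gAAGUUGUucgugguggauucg
rno-miR-382-3p: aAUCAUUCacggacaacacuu
rno-miR-377-5p: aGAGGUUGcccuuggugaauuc
rno-miR-377-3p: uGAAUCACacaaaggcaacuuuu
rno-miR-350: uUCACAAAgcccauacacuuucac

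Mir323 read 0.196, -0.013, 0.502, 1.12 and 0.995 in HF diet hearts 1 to 5 and -1.12 to 0.165 in controls, median 0. Heart 2 alone lay inside the control range. The difference was 0.76 (SE 0.25, 1.69-fold, limma p = 0.00648, exact permutation p = 0.0101) and passed with each heart left out, lowest without control heart 5 (0.61). With hearts 1 and 2 alone it was 0.29, short of the threshold.

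Mir539 read 0.428, 0.464, 0.4, 1.2 and 0.228 against -0.602 to 0.379, median 0, with heart 4 far above the rest and heart 5 among the controls. Its difference of 0.60 (SE 0.24, limma p = 0.0221, exact permutation p = 0.0114) missed the threshold without HF diet heart 4 (0.44) or control heart 5 (0.51). Mir382 read -0.017, 0.118, 0.302, 0.89 and 0.904 against -0.962 to 0.203, median -0.027. Hearts 3 to 5 lay above all controls. Its difference of 0.59 (SE 0.26, limma p = 0.0327, exact permutation p = 0.0303) missed the threshold without HF diet heart 4 or 5 or control heart 5 (0.46 to 0.48).

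Mir377 read -0.056, 0.085, 0.758, 0.619 and 0.463 against -0.97 to 0.096, median -0.092, again with hearts 3 to 5 above all controls. Its difference of 0.59 (SE 0.24, limma p = 0.0201, exact permutation p = 0.0189) missed the threshold without HF diet heart 3 or 4 or control heart 5 (0.47 to 0.53). The other 4 of the run, Mir493, Mir341, Mir380 and Mir154, differed by 0.59, 0.23, 0.60 and 0.33 and did not pass. Mir350 read 0.224, 0.208, 0.674, 0.306 and 0.266 against -0.479 to 0.116, median -0.084. The groups did not overlap, and heart 3 was highest. The difference was 0.43 (SE 0.17, limma p = 0.0158, exact permutation p = 0.00253), and 0.35 without heart 3, short of the threshold. None of the 5 passed with hearts 1 and 2 alone.

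**Figure D3:**
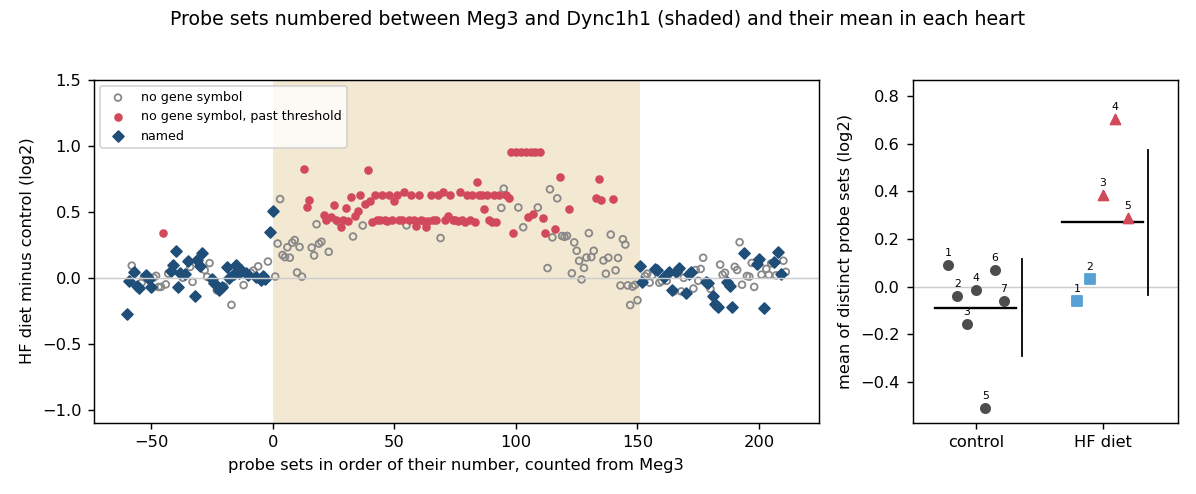
Left, the difference HF diet minus control (log2, vertical axis) of probe sets in order of their number counted from Meg3 (horizontal axis), with the 150 unnamed probe sets up to Dync1h1 shaded, open circles for probe sets without a symbol, red for those past the threshold and blue diamonds for those with one. Right, the mean of the 104 distinct probe sets in each heart (log2), with means as lines, SD as bars and markers as in the other plots; HF diet hearts 3 to 5 lie at 0.287 to 0.702.

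Both Reg3 genes were lower. Reg3b and Reg3g are secreted lectins of the acute phase, induced through STAT3 by cytokines of the interleukin 6 family, and in mouse heart Reg3b draws in macrophages. The 250 bases upstream of each start are shown because the genes moved together (RefSeq, GRCr8; Reg3b chr4:112419526-112419775, plus strand, Reg3g chr4:112484739-112484988, minus strand). Capitals mark the letters TTCNNNGAA, the core read by STAT factors, searched on both strands. They are in the window of Reg3b and not in that of Reg3g, and in 7.67% of all 33469 promoters of the table.
Reg3b: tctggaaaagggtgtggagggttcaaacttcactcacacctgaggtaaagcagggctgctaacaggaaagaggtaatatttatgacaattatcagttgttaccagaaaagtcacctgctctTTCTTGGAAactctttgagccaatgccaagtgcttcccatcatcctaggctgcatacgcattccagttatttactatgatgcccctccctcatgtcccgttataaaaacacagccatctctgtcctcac
Reg3g: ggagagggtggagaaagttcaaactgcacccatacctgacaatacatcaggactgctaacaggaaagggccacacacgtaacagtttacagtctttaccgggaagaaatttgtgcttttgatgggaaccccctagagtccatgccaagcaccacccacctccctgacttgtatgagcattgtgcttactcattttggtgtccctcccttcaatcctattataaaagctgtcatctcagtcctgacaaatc

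Reg3g read -0.559, -0.326, -0.646, -0.998 and -0.983 in HF diet hearts 1 to 5 and -0.062 to 1.28 in controls, median 0.171. The groups did not overlap, and hearts 4 and 5 were lowest. The difference was -1.07 (SE 0.31, 2.10-fold, limma p = 0.00233, exact permutation p = 0.00126). Reg3b read -0.22, 0, -0.578, -0.804 and -0.443 against -0.346 to 2.46, median 0.386. Controls 4 and 6 lay among the HF diet hearts, and control heart 1, the one with lymphoid and lung markers, was far above all. Its difference was -0.99 (SE 0.34, 1.99-fold, limma p = 0.00716, exact permutation p = 0.0328). Both genes stayed past the threshold without control heart 1 or any other heart. With HF diet hearts 1 and 2 alone neither passed (Reg3g -0.81, Reg3b -0.69). Reg3b also missed the threshold with the hearts of 1 code stem averaged.

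Of 34 genes for acute phase and innate secreted proteins 3 were lower and 0 higher, beside 0.255% and 0.221% of all genes. Serping1, the inhibitor of complement C1, was the third lower one. It read -0.123, 0.177, -1.33, -0.167 and -0.007 against -0.036 to 0.582, median 0.122. Heart 3 made most of the distance, and heart 2 lay above the control median. The difference of -0.48 (SE 0.20, limma p = 0.0242, exact permutation p = 0.0480) missed the threshold without HF diet heart 3 (-0.22), control heart 1 (-0.41) or control heart 3 (-0.42). Alox15, a lipoxygenase of macrophages and eosinophils that oxidizes polyunsaturated fatty acids, was low in HF diet hearts 3 to 5 and not in hearts 1 and 2. It read 0.342, 0, -2.21, -1.68 and -1.06 against -1.05 to 1.51, median -0.108. The difference was -1.09 (SE 0.52, limma p = 0.0472, exact permutation p = 0.0859), and it was 0.0066 with hearts 1 and 2 alone. It missed the threshold without HF diet heart 3, 4 or 5 or control heart 2, 3, 5 or 6 (-1.13 to -0.76).

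Of 38 genes of the interferon response 3 were lower and 0 higher past the threshold, beside 0.255% lower and 0.221% higher of all genes. The list had 8 positive differences (21.1%, beside 52.2% over all genes) and a median of -0.10, which was -0.049 without control heart 1. The list mean was 0.384 in control heart 1, 0.303 in control heart 5 and 0.135 in control heart 3. The other controls, at -0.074 to -0.011, lay inside the HF diet range of -0.124 to 0.107. The 3 were Irf7, Gbp2 and Rtp4, and Rtp4 has no promoter in the table used. Tap1, the peptide pump of antigen presentation, did not pass and is shown beside the other 2. Irf7, the factor that amplifies type I interferon, Gbp2, a GTPase against intracellular microbes, and Tap1 each hold a match to the interferon-stimulated response element. Their 250 upstream bases are shown because that element, written here as GAAA, any pair of bases and GAAA again, searched on both strands and given in capitals, was found in 17 of the 30 genes of the list that have a promoter in the table and in 3.41% of all 33469 promoters (RefSeq, GRCr8; Irf7 chr1:205800024-205800273, minus strand; Gbp2 chr2:234005477-234005726, plus strand; Tap1 chr20:4668544-4668793, minus strand).
Irf7: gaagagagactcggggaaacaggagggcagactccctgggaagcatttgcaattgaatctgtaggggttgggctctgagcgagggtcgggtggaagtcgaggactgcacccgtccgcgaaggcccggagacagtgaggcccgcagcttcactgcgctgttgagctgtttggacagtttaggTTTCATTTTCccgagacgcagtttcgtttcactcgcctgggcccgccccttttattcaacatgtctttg
Gbp2: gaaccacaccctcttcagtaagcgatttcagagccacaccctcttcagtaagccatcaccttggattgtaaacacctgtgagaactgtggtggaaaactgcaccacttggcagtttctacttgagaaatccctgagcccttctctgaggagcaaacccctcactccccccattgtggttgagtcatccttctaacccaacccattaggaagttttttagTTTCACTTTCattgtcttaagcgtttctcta
Tap1: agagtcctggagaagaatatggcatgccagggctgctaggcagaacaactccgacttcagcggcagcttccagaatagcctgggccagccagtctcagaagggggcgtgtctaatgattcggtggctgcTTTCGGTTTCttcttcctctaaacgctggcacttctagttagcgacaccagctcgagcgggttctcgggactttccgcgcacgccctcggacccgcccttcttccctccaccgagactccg

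Irf7 read -0.273, 0.287, -0.426, -0.065 and -0.26 against -0.169 to 0.617, median 0.014. Heart 2 lay above the control median and hearts 1, 3 and 5 below all controls. The difference of -0.36 (SE 0.16, limma p = 0.0370, exact permutation p = 0.0821) missed the threshold without HF diet heart 1, 3 or 5 or control heart 3, 5 or 7 (-0.33 to -0.29). Gbp2 read 0.09, -0.09, -0.275, -0.094 and -0.279 against -0.068 to 0.529, median 0.141, with heart 1 alone inside the control range. Its difference of -0.34 (SE 0.13, limma p = 0.0164, exact permutation p = 0.0366) missed the fold change without HF diet heart 3 or 5 or control heart 1, 3 or 5 (-0.30 to -0.28).

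Rtp4, an interferon-induced chaperone of receptors, read 0.148, -0.6, -0.285, -0.26 and -0.114 against -0.219 to 0.6, median 0.089. Hearts 1 and 5 overlapped the controls. The difference was -0.38 (SE 0.16, limma p = 0.0243, exact permutation p = 0.0455), and it missed the threshold without HF diet heart 2 (-0.29), control heart 3 (-0.32) or control heart 5 (-0.31). Tap1, named after its values were seen, separated the groups (-0.155 to -0.075 against -0.02 to 0.835) with a difference of -0.32 just under the fold change needed (SE 0.11), and control heart 1 was its highest heart. The list did not move as a block: Usp18 differed by -0.54 (SE 0.30) and Ifit1 by 0.22 (SE 0.082), neither past the threshold.

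Cd4, Pla2g2d and other lymphoid genes lost their call without control heart 1. Cd4, the coreceptor of helper T cells, read -0.013, -0.026, -0.474, 0.11 and -0.001 in HF diet hearts and -0.054 to 2.16 in controls, median 0.285. Control heart 1 was the highest by far, and its difference of -0.57 (SE 0.25, limma p = 0.0317, exact permutation p = 0.0808) was -0.30 without that heart and -0.48 without HF diet heart 3, both short of the threshold. Pla2g2d, a secreted phospholipase of lymphoid dendritic cells, read 0, -0.084, -0.191, -0.488 and -0.304 against -0.064 to 1.97, median 0.024. Its difference of -0.53 (SE 0.23, limma p = 0.0325, exact permutation p = 0.0657) was -0.26 without control heart 1, and it also missed the threshold without HF diet heart 4 (-0.46) or 5 (-0.51).

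Itgal, an integrin of leukocytes, Stap1, a B cell adaptor, and Gpr183, a receptor that guides B cells, were named after their values were seen. Their differences of -0.43, -0.48 and -0.39 (exact permutation p = 0.0189, 0.0492 and 0.0429) were -0.24, -0.30 and -0.27 without control heart 1. The lymphocyte and thymus list had 3 of 25 positive differences and a median of -0.26, and without control heart 1 it had 12 of 25 and -0.030. Genes of myeloid cells kept their call without that heart in 3 cases: Alox15 went from -1.09 to -1.17, and Lilrb4, an inhibitory receptor, and Gpnmb, a glycoprotein of macrophages, both named after their values were seen, went from -0.41 to -0.42 and from -0.37 to -0.34. These calls did not hold under every omission. Lilrb4 missed the threshold without HF diet heart 4 (-0.32), and Gpnmb without HF diet heart 3 (-0.27) or control heart 3 (-0.31). The omissions that cost Alox15 its call are given above. For 30 macrophage and monocyte genes the median was -0.11 and became -0.027 without control heart 1. The lung epithelium list changed from -0.15 to 0.076. Of the 40 named probe sets lower past the threshold 26 kept their call without control heart 1, as did 21 of the 33 higher ones.

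**Figure D4:**
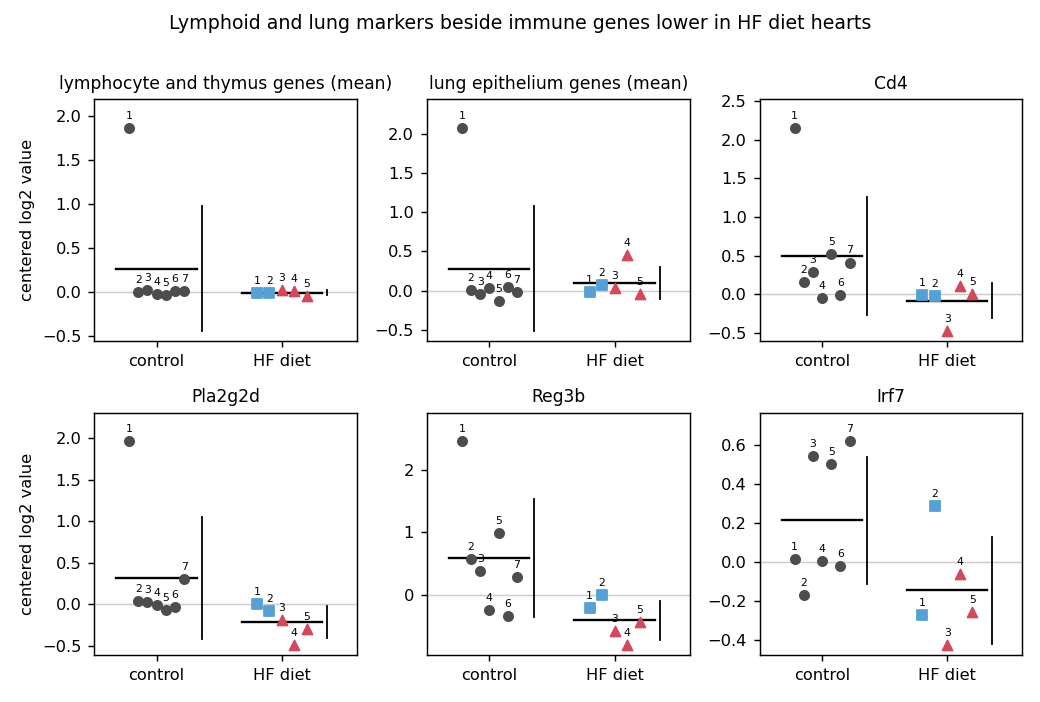
Centered log2 values (vertical axis) in each heart of the mean of lymphocyte and thymus genes, the mean of lung epithelium genes and 4 immune genes, with gray circles for controls, blue squares for HF diet hearts 1 and 2, red triangles for HF diet hearts 3 to 5, lines for means and bars for SD. Control heart 1 is at 1.87 and 2.09 in the list means and at 2.16 in Cd4, 1.97 in Pla2g2d and 2.46 in Reg3b, while in Irf7 it is at 0.014.

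Of 38 genes for fatty acid oxidation and PPAR targets 0 passed the threshold, beside 0.476% of all genes. Of the 38 genes 6 had a positive difference (15.8%, beside 52.2% over all genes), and the median was -0.12. Cpt1b, the carnitine transferase that admits fatty acids to mitochondria, differed by -0.066 (limma p = 0.517, exact permutation p = 0.432) and Cd36, the fatty acid transporter, by -0.12 (limma p = 0.0507, exact permutation p = 0.0745). Pdk4, the kinase that spares glucose, differed by 0.094 (limma p = 0.771, exact permutation p = 0.668). Ucp3, a mitochondrial carrier induced by fatty acids, read 0.091, 0.056, -0.44, -0.172 and -0.401 against -0.071 to 0.451. Its difference of -0.30 (limma p = 0.0290, exact permutation p = 0.0341) lay under the fold change needed, with hearts 3 to 5 below all controls. Ppara, the receptor itself, and its coactivator Ppargc1a differed by -0.030 and 0.13.

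The hearts of the group split in this list. Its mean was 0.034, 0.176, -0.386, -0.289 and -0.063 in HF diet hearts 1 to 5 and -0.359 to 0.249 in controls, so the groups overlapped. Hearts 3 to 5 lay below hearts 1 and 2. The median was 0.072 with 27 positive differences for hearts 1 and 2 alone, and -0.25 with 7 genes lower past the threshold for hearts 3 to 5 alone. Without control heart 6, the lowest control, 3 genes were lower past the threshold and the median was -0.18. Lower calls over all probe sets rose as well, from 75 to 285 with hearts 3 to 5 alone and to 140 without control heart 6. Angptl4, a PPAR target that blocks lipoprotein lipase, spread from -1.61 to 1.48 in HF diet hearts and from -2.34 to 1.34 in controls, with a difference of 0.10 (SE 0.69).

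Gpihbp1, which holds lipoprotein lipase on the capillary wall, did pass. It read -0.237, 0.094, -1.37, -0.645 and -0.348 against -0.611 to 0.331, median 0.11. Hearts 3 and 4 lay below all controls, heart 2 near their median, and control heart 6 was the low control. The difference was -0.57 (SE 0.20, 1.49-fold, limma p = 0.00762, exact permutation p = 0.0429). It passed with each heart left out but was -0.35 without HF diet heart 3, and it missed the threshold in the methods' unequal-variance test, with stems averaged (-0.38) and with hearts 1 and 2 alone (-0.14). Other calls that were lost in that test are named in the closing section. Lpl, the lipase itself, differed by -0.24 (SE 0.089), under the fold change needed. Pik3ip1, an inhibitor of PI3 kinase, read -0.529, -0.14, -0.782, -0.515 and -0.211 against -0.583 to 0.964, median 0.065. All 5 hearts lay below the control median but overlapped control heart 2. The difference of -0.60 (SE 0.21, 1.51-fold, limma p = 0.0104, exact permutation p = 0.0278) passed with each heart left out. It missed the threshold with the hearts of 1 code stem averaged and with hearts 1 and 2 alone (-0.50). Of 33 genes for insulin, PI3K, AKT and mTOR signaling 0 passed, beside 0.476% of all genes. The list median was 0.039, and Irs1 differed by -0.078.

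Fat synthesis and lipid droplet genes gave no call either, with 0 of 27 past the threshold, beside 0.476% of all genes, and a median of -0.036. Fasn differed by 0.046, Scd by 0.17 and Plin2, which coats lipid droplets, by -0.19, none past the threshold. Fads2, the desaturase of polyunsaturated fatty acids, was named after its values were seen. Its 5 HF diet hearts (0.018 to 0.299) lay above all controls (-0.442 to 0), with a difference of 0.28 under the fold change needed (SE 0.11). For 25 cholesterol genes the median was -0.046 with 0 past the threshold.

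Respiratory chain and mitochondrial genes gave no call, beside a share of 0.476% over all genes. Of 33 complex I genes 8 had a positive difference (median -0.035), of 37 for complexes II to V 10 (median -0.023) and of 68 for the mitochondrial ribosome 19 (median -0.041), with 0 past the threshold in each. Among 29 antioxidant and NRF2 targets 5 were positive (median -0.094) and 0 passed. Glycolysis and hypoxia genes had a median of 0.082 with 27 of 35 positive. The 1 gene of that list past the threshold was lower: Adm, the vasodilator adrenomedullin, read -0.296, -0.195, -0.828, -0.222 and -0.091 against -0.113 to 0.444, median 0.042. Control heart 4 alone fell among the HF diet hearts. Its difference was -0.44 (SE 0.14, limma p = 0.00574, exact permutation p = 0.00253), and -0.31 without HF diet heart 3, just under the fold change.

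The lists of myocyte genes described here held no call. Myh6 and Myh7, the adult and fetal heavy chains in the rat ventricle, differed by -0.023 and 0.082 (exact permutation p = 0.731 and 0.453). The natriuretic peptides Nppa and Nppb, which mark wall stress, differed by -0.074 and 0.28 (exact permutation p = 0.307 and 0.152). Of 21 sarcomere, 20 hypertrophy, 31 calcium and ion channel and 28 cardiac transcription factor genes 0 passed, beside 0.476% of all genes. Filip1, which binds filamin, was 0.30 higher (SE 0.079, limma p = 0.000895, exact permutation p = 0.0114) and just under the fold change. It read 0.127, 0.241, 0.404, 0.279 and 0.402 against -0.228 to 0.233, so heart 1 alone fell below the highest controls. Vcam1, an adhesion molecule of the epicardium and endothelium, differed by 0.26 and did not pass (exact permutation p = 0.0934).

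Cell cycle genes leaned upward without a call. The median was 0.12, with 33 of 36 positive and 0 past the threshold, beside 52.2% positive and 0.476% past it over all genes. The list mean ran from -0.084 to 0.108 in HF diet hearts and from -0.346 to 0.289 in controls, with control heart 5 highest and control heart 4 lowest. The HF diet hearts all lay inside that range. Without control heart 5, and likewise without control heart 2, 3 genes passed. Over all probe sets 202 passed without control heart 5 and 352 without control heart 2, beside 275 with all hearts. Immediate early genes also leaned upward, with 0 past the threshold, 23 of 31 positive, a median of 0.088 and controls from -0.417 to 0.911.

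The remaining large differences were carried by few hearts. Hbe1, an embryonic globin, read -0.018, -0.135, 0.196, 1.06 and 1.19 against -1.28 to 0.114, median -0.388. Hearts 4 and 5 made the difference of 0.86 (SE 0.40, limma p = 0.0416, exact permutation p = 0.0139), which missed the threshold without either of them or without control heart 1, 2, 4, 5 or 7 (0.68 to 0.87). Of 30 erythroid genes 16 were positive, the median was 0.0067 and Hbe1 alone passed, beside 0.476% of all genes. Bex4 read 1.46 in heart 3 and -0.104 to 0.228 in the other 4, against -1.42 to 0.216, a difference of 0.64 (limma p = 0.0449, exact permutation p = 0.0770) that was 0.36 without heart 3. It also missed the threshold without HF diet heart 4 or control heart 1, 2 or 7 (0.46 to 0.66).

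Lrrc14b differed by -0.55 (limma p = 0.0264, exact permutation p = 0.0341), but not past the threshold without HF diet heart 4, control heart 5 or control heart 7 (-0.46 to -0.45). Mal2, a transport protein of epithelia, had its highest values in control hearts 1 and 3 (1.46 and 0.929), and its difference of -0.51 (limma p = 0.0194, exact permutation p = 0.0972) was -0.45 without HF diet heart 3, no longer past it, and -0.33 without control heart 1, still past it. Drd4, a dopamine receptor, ran from -1.03 to 0.535 in HF diet and -0.189 to 1.14 in control hearts, and its -0.49 (limma p = 0.0412, exact permutation p = 0.129) missed the threshold without HF diet heart 1, 3 or 5 or control heart 3, 5 or 7 (-0.48 to -0.28). Bhlhe41, a clock repressor, was -0.43 apart (limma p = 0.0201, exact permutation p = 0.0833) and missed it without HF diet heart 3 or 4 or control heart 7 (-0.35 to -0.30).

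Some symbols have several probe sets. For Lrp1b, a large receptor of the LDL family, 1 of 16 probe sets was higher by 0.56 (SE 0.19) and the mean over the 16 differed by 0.087. Of 2 probe sets for RT1-T24-4, a class I histocompatibility gene, 1 was lower by 0.54 on the log2 scale (difference -0.54, SE 0.22). That call was lost without HF diet heart 2 or 4 or control heart 4 (-0.44 to -0.39), and near-identical family members can share its probes.

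**Figure D5:**
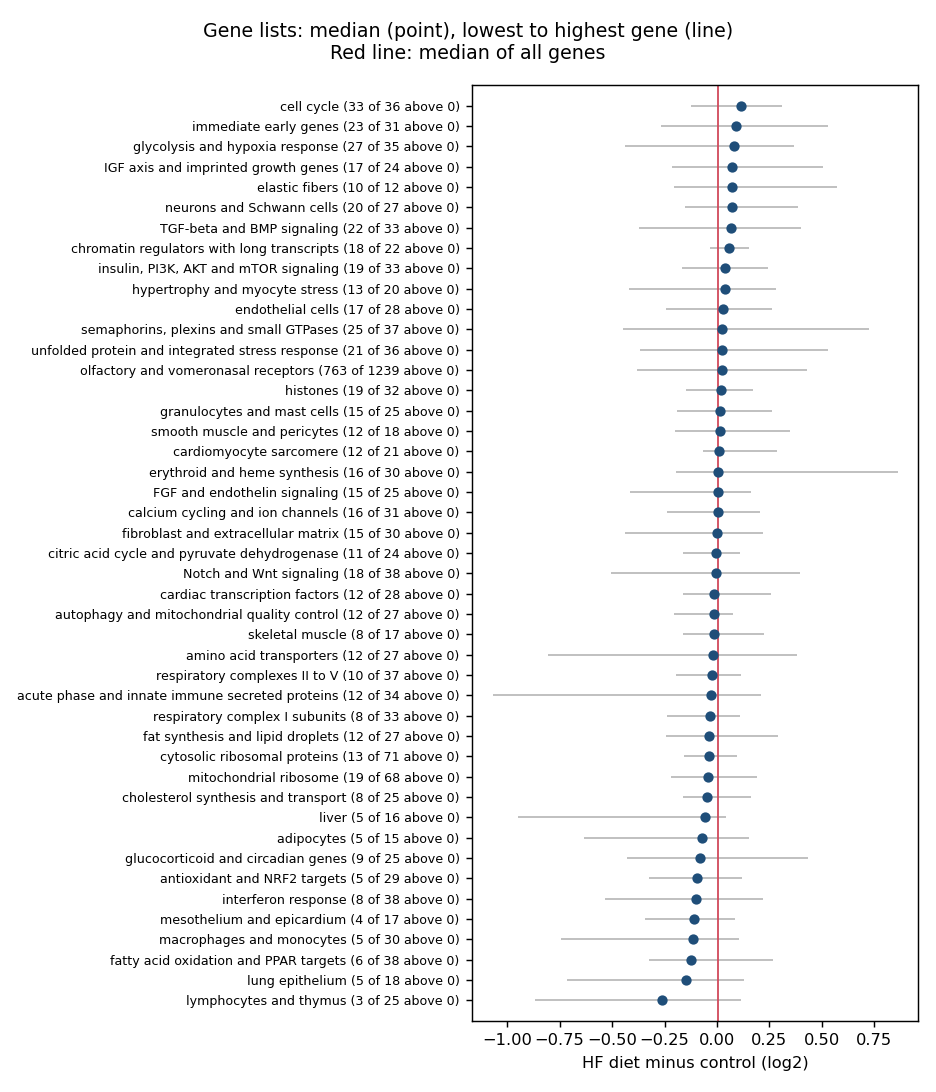
Median difference HF diet minus control (log2, horizontal axis) of each gene list as a point, with a line from the lowest to the highest gene and the number of genes above 0 in brackets; the red line is the median of all genes, 0.0053. The lymphocyte and thymus list is lowest at -0.26 and the cell cycle list highest at 0.12.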

How the data were processed

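RNA of 23 whole newborn rat hearts was hybridized by the authors to Affymetrix Rat Gene 1.0 ST arrays and normalized in GeneSpring GX. The deposited values are log2 values of 29170 probe sets, each centered on its median over the 23 hearts. For the algorithm and for the limits of the authors' quality filter: not given in the sources used here. Signal over background cannot be read from centered values, so dim probe sets were not filtered out.

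Groups came from the exposure labels. Of the probe sets 15310 carry 1 symbol in the annotation, 323 several and 13537 no symbol, and 15279 were matched to RefSeq by Entrez identifier with 0 symbols changed. Identifiers in the study's gene lists, checked against RefSeq, named 21 microRNA probe sets. For 198 probe sets all values repeat those of an earlier probe set. The 527 genes with several probe sets were averaged for lists. Group means of all 23 hearts were estimated in a single linear model (R 4.3.3, limma 3.58.1, lmFit and eBayes), with Benjamini-Hochberg adjustment over all probe sets. The calls used the threshold of the methods, a fold change beyond 1.25 and an unadjusted p under 0.05. Exact permutation p-values, two-sided, enumerated the 792 splits of the 12 hearts. The model was tested on simulated data with known changes.

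Named genes are those past the threshold without overlap, the 12 highest and 12 lowest differences past it, list members and microRNAs past it, fixed genes of lipid handling and heart stress, and genes already described for this comparison, and others are said to be named after their values were seen. The members, lists and rules were chosen with earlier results of these data known. Alternatives changed the test, the hearts, code stems, scaling, weights, an erythroid covariate and the threshold, and left out each heart in turn. Symbols are those of the array design, and overlapping or near-identical genes can share probes. Results for some genes are not reported here.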

Additional observations from a re-analysis of the deposited data

Results flagged for a closer look

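In 22 groups a single heart stood apart from the others of its group by Dixon's test, out of 138 groups of single genes or list means looked at. Chance sets apart about 1 in 20 such groups. HF diet heart 3 stood apart most often. It was low in Sema7a (-0.74), Cd4 (-0.474), Adm (-0.828), Serping1 (-1.33) and Nppa (-0.323) and high in Bex4 (1.46) and Mir350 (0.674). HF diet heart 2 stood low in Acan (-0.207) and Myh11 (-0.35). HF diet heart 4 stood low in Fgf9, a fibroblast growth factor (-0.59), and high in Mir539 (1.199) and the mean of lung epithelium genes (0.457).

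Among controls, heart 1 stood high in Cd4 (2.16), Pla2g2d (1.97), the mean of lymphocyte and thymus genes (1.87) and the mean of lung epithelium genes (2.09). Control heart 5 stood low in Eln (-1.11), Mir382 (-0.962) and Mir377 (-0.97). Control heart 6 stood low in Gpihbp1 (-0.611) and high in Ppargc1a (0.378), and control heart 7 stood high in Drd4 (1.14). The interaction of diet and diabetes had 0 probe sets at an adjusted p under 0.05 in limma, with a lowest adjusted p of 0.358 and 1896 at an unadjusted p under 0.05.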

How the results depend on the processing

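The count of 275 probe sets past the threshold was 158 by the methods' unequal-variance test, 112 with hearts of 1 code stem averaged, 176 with the stem as a random block, 76 among probe sets with 1 symbol fitted alone and 65 at a fold change beyond 1.5. It ranged from 152 to 450 when each heart was left out in turn. With HF diet hearts of the shared stem alone, an alternative chosen after seeing the data as was its counterpart without them, it was 667. Other settings gave 184 to 406. The count of 6 named probe sets without overlap was 12 with stems averaged, 2 at the higher fold change, 36 without the shared stem, 73 with it alone and 6 to 20 with hearts left out; fewer values separate more easily. Replicate numbers in the labels do not pair the hearts: of 5 pairs 1 correlated over 0.1 (-0.264 to 0.33), and 1 of 5 HF diet hearts correlated best with its own number. With the replicate block the counts were 406 and 7.

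Of 45 named probe sets or genes past the threshold, 2 (Or6c1h and Pcdh18) passed in every setting and 44 kept their sign. By the methods' unequal-variance test Gpihbp1, Cilp, Eln, Meg3, Alox15, Serping1, Irf7, Bhlhe41 and 1 probe set of RT1-T24-4 did not pass. Nor did Cd4, Pla2g2d, Mal2, Drd4, Bex4, Myh11 and Sfrp2 by that test. Fitted on the 12 hearts alone, Cd4, Pla2g2d, Mal2, Drd4, Bex4, Meg3, Myh11 and Sfrp2 lost their call. Without the shared stem the sign turned for Alox15 (0.0066), Cpt1b (0.082), Plin2 (0.10), Myh6 (0.013) and Myh7 (-0.013). With it alone it turned for Angptl4 (-0.62), Ppara (0.0083) and Fasn (-0.0024). With the replicate block it turned for Angptl4 (-0.18), Ppara (0.071), Irs1 (0.012) and Myh6 (0.0048). With hearts left out in turn, Angptl4 ran from -0.29 to 0.53 (below 0 without HF diet 1, 2 or 5 or control 1 or 6), Ppara from -0.11 to 0.12 (above 0 without HF diet 5 or control 6), Pdk4 from -0.0087 (HF diet 5) to 0.25 and Myh6 from -0.058 to 0.0017 (control 4). Apart from Alox15 these genes had not passed. The cause of these shifts was not tested. Centering removes signal over background, so a dim probe set cannot be told from a steady one.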
